A study of Mus musculus with 6 samples.

Results

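Collagen chains are the polypeptides that assemble by threes into the triple helices of fibrils, basement membranes and smaller extracellular networks. They were taken as every gene of the deposited table whose symbol is Col, a number, the letter a and a number, which gave 40 of 28154 genes. The series measured RNA in 4T1, an established mouse mammary carcinoma cell line, in 3 control libraries and 3 libraries labelled as treated with corticosterone, the main glucocorticoid of rodents. Both groups were of the same line and differed in treatment only, as far as the labels say. The dose, time and vehicle were not given in the sources used here. Nothing says that libraries of a group are separate cultures, and p-values therefore measure only their spread, which may be technical.

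A collagen helix is built on a repeat written Gly-X-Y, glycine followed by a pair of other residues, because only glycine is small enough for the centre of the helix. In the cell, prolines and lysines of the chains are hydroxylated, the chains fold from one end, and the trimer is secreted and, for the fibril-forming types, trimmed before it assembles outside. Epithelial cells are known for the basement membrane types, while fibroblasts are the usual source of the fibrillar types I and III, and glucocorticoids are known to lower type I collagen synthesis in fibroblasts.

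The longest annotated coding sequence of each chain, from GENCODE M21 (mouse build GRCm38), shows the repeat on which the families differ. A stretch of Col1a1 and stretches around a break in Col4a1 and Col16a1 are printed because they represent a fibril-forming, a network-forming and a fibril-associated chain. Glycine codons that open a triplet in a block of at least 5 Gly-X-Y triplets are in capitals. The long run in lower case in the other two lies between such blocks. Glycine codons within that run of Col4a1 belong to no such block and stay in lower case. They cover transcript bases 647 to 736 of Col1a1, 669 to 788 of Col4a1 and 1509 to 1607 of Col16a1, on the coding strand.
Col1a1: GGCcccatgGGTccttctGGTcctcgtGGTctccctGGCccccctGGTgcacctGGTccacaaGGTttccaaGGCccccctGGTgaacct
Col4a1: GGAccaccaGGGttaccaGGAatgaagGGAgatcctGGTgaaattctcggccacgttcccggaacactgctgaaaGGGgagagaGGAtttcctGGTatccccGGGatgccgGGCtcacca
Col16a1: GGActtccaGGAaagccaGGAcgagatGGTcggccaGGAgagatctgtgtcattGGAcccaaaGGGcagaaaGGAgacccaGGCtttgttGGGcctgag
The Col1a1 stretch ran without a break, and the gap between blocks was 10 codons in the Col4a1 stretch and 3 codons in the Col16a1 stretch. Counting blocks of at least 5 triplets, the longest block was 338 triplets in Col1a1, 339 in Col1a2 and 344 in Col3a1. Col4a1 instead held 22 blocks with a longest of 40, and Col4a2 held 24 with a longest of 66. Col16a1, with 1580 codons, held 21 blocks with a longest of 52, so that its repeat was divided like that of type IV and not like that of type I. Col7a1, the chain of anchoring fibrils, was the longest of the abundant chains at 2944 codons and held 20 blocks.

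**Figure D1:**
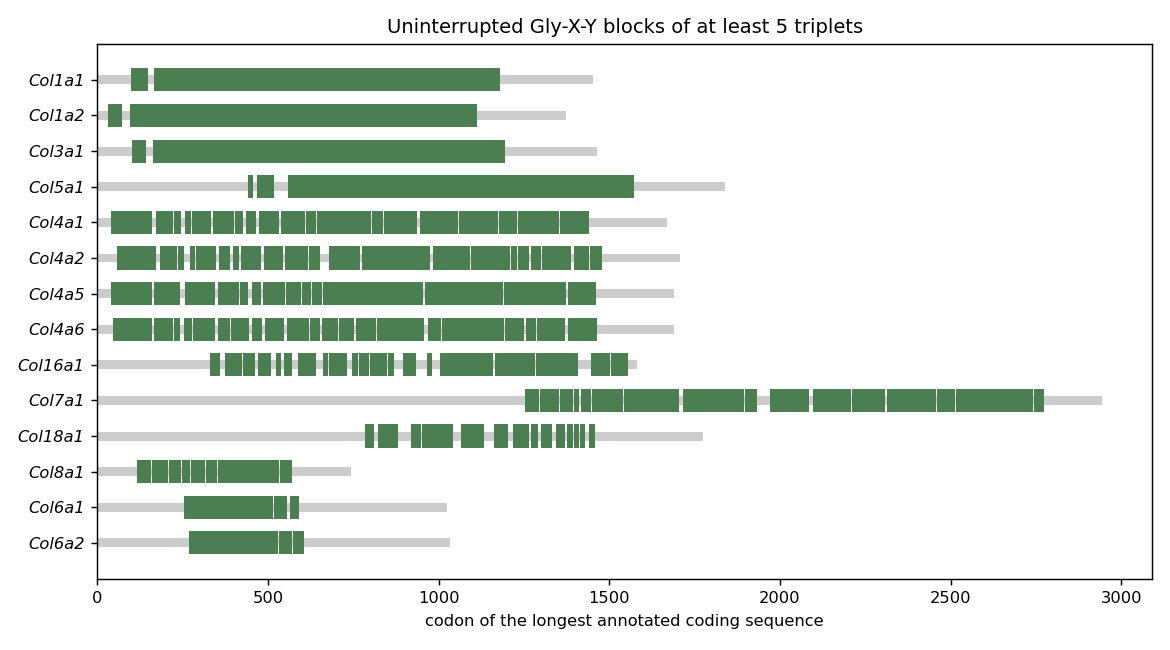
Position of uninterrupted Gly-X-Y blocks (green) along the longest annotated coding sequence (grey, in codons) of 14 collagen chains. Col1a1, Col1a2, Col3a1 and Col5a1 hold 1 long block each, whereas Col4a1 is divided into 22 blocks and Col16a1 into 21.

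The 4T1 libraries contained mostly collagens of basement membranes and epithelial surfaces, and little of the fibrillar types. All 40 chains had at least 1 count in some library, but so had each of the 28154 genes of the deposited table. A collagen gene without a row there is not counted here. Of the 40 chains, 12 reached a mean of at least 1 FPKM (fragments per kilobase of transcript relative to sequencing depth, the only scale here on which levels of different genes are compared) in either group, and 8 reached at least 5 FPKM. Those 8 held 93.1% to 93.5% of the summed FPKM of all chains in every library. Given as control mean ± SD of 3 libraries, then the corticosterone mean, Col4a1 stood highest at 53.3 ± 3.07 and 50.7 ± 2.81 FPKM. Its partner Col4a2, with which it forms the common type IV trimer, followed at 46.2 ± 1.32 and 45.7 ± 2.41 FPKM. Col18a1, the chain of a basement membrane proteoglycan whose end is released as endostatin, was at 40.7 ± 1.15 and 42.8 ± 1.44 FPKM. These 3 chains and Col7a1 together made up 75.1% to 77.6% of collagen FPKM. Next came Col7a1 at 30.8 ± 0.0188 and 28.2 ± 0.915 FPKM and Col8a1, a short chain of hexagonal networks, at 17.8 ± 0.811 and 15.4 ± 2.75 FPKM. Col16a1, of the fibril-associated collagens with interrupted helices (FACIT), stood at 12.8 ± 0.672 and 10.5 ± 0.208 FPKM. In that order the control ranges of neighbouring chains did not overlap down to Col16a1. Col1a2 (5.66 ± 0.239 and 5.30 ± 0.0929 FPKM) and Col1a1 (4.96 ± 0.675 and 5.49 ± 0.28 FPKM) overlapped each other.

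By family, the 6 type IV chains summed to 105 ± 4.39 FPKM in controls and 101 ± 5.73 FPKM in treated libraries, 44.6% to 47.1% of all collagen FPKM. The 11 fibrillar chains summed to 16.4 ± 0.914 and 16.4 ± 0.326 FPKM, 6.94% to 7.70% of the total. The 6 type VI chains, of beaded filaments in interstitial matrix, made up 1.20% to 1.79%. Of 8 epithelial markers checked, 7 had a row in the deposited table and were expressed, and Krt5 had no row. Their summed level was 1771 to 1890 FPKM in controls and 1645 to 1941 FPKM in treated libraries. Of 5 endothelial markers, 4 had a row (not Emcn) and none of these reached 1 FPKM. Their sums were 0.204 to 0.286 FPKM in controls and 0.0983 to 0.123 FPKM in treated libraries. Of 6 blood and immune markers 2 were expressed, Cd68 (22.3 and 20.6 FPKM) and Itgam (2.44 and 2.52 FPKM). The sums over the 6, 24.6 to 26.3 and 21.8 to 26.4 FPKM, were mostly Cd68. Ptprc (0.198 and 0.202 FPKM) and Adgre1 (0.595 and 0.734 FPKM) were below 1 FPKM. Cd3e had at most 10 counts and Ms4a1 at most 4 in any library.

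**Figure D2:**
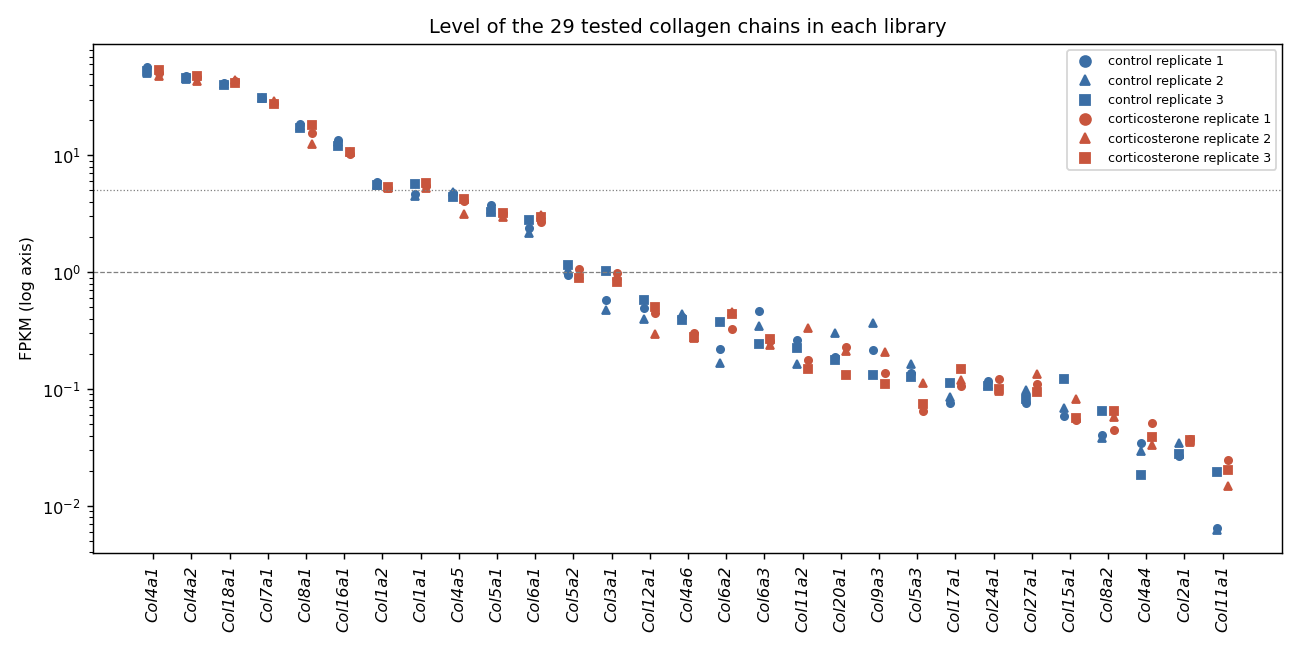
FPKM (log axis) of the 29 collagen chains with enough counts for a test, in order of mean level, with controls in blue, corticosterone in red and symbols for the replicate number; the dashed line marks 1 FPKM and the dotted line 5 FPKM. Col4a1 leads at about 50 FPKM in both groups and the 8 chains down to Col1a1 reach the dotted line.

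Between the groups, 1 of the 29 tested chains changed. Col16a1 fell, and no chain rose at an adjusted p under 0.05 in edgeR's quasi-likelihood test with Benjamini-Hochberg adjustment over all 17283 tested genes. That is 3.45% of the tested chains, beside 2.82% of all tested genes (1.46% lower and 1.35% higher), so the collagens did not stand apart from the background by this count. At an unadjusted p under 0.05 the same test gave 5 chains (17.2%), beside 17.0% of all genes. All 5 (Col16a1, Col4a6, Col4a5, Col5a3 and Col7a1) were lower with corticosterone, whereas of all genes 1521 were lower and 1423 higher at that level. The groups did not overlap in 8 chains (27.6%), 7 lower and 1 higher, beside 22.2% of all genes (2007 lower and 1828 higher). Whether the chains differ from all genes in direction was not tested. The median log2 fold change of the 29 chains was -0.08, with 12 above and 17 below 0, and that of all tested genes was 0.00. The summed FPKM of the 40 chains was 235, 223 and 224 in control replicates 1, 2 and 3 and 220, 211 and 224 in corticosterone replicates 1, 2 and 3. The groups overlapped, and the difference of -9.01 had a two-sided exact permutation p of 0.2, where 0.1 is the smallest that 3 against 3 allows. The result depended on scaling. With FPKM divided by the TMM factor of the edgeR fit, the difference was -10.4 with an exact permutation p of 0.1, that smallest value. Its sign turned when libraries were scaled to TPM, in which every library has the same sum (0.762, exact permutation p = 1.0). Without corticosterone replicate 2, which lay nearest the controls on the first principal component of all genes, 4 of 29 chains passed (13.8%), beside 20.5% of all genes. These were Col16a1, Col4a6, Col5a3 and Col7a1.

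**Figure D3:**
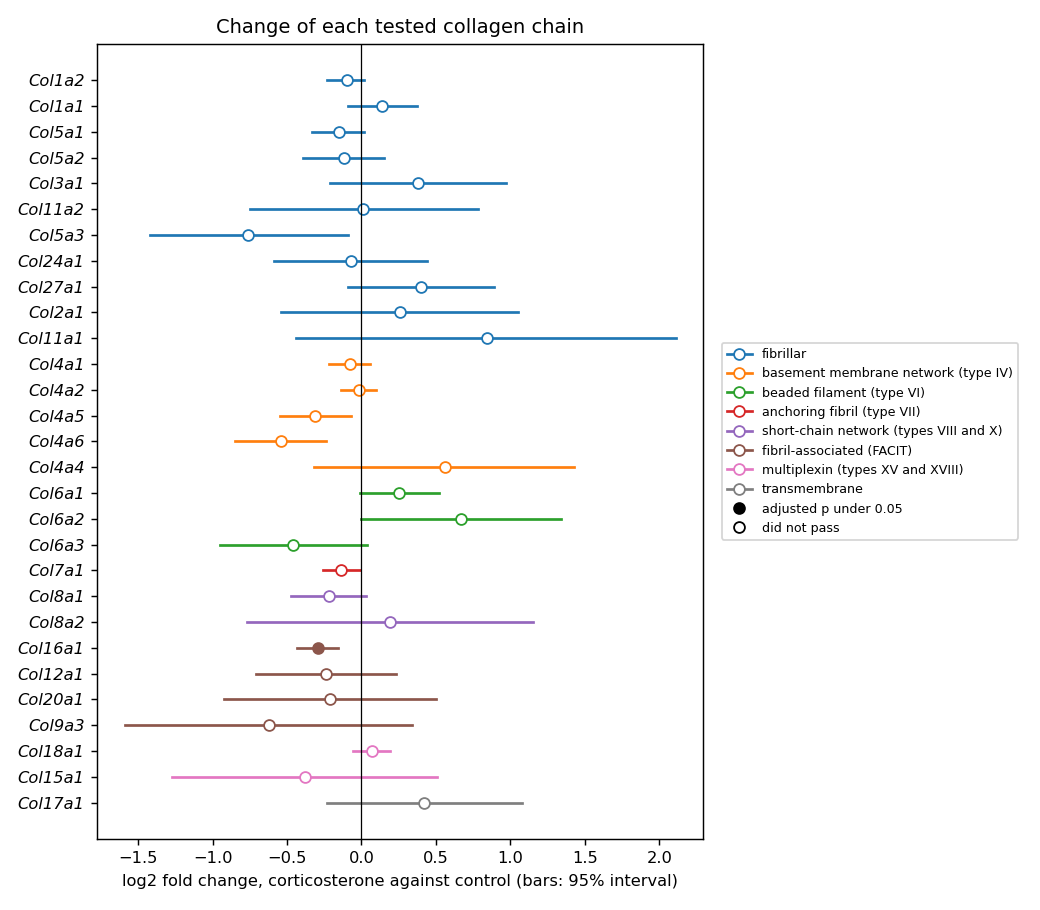
Log2 fold change of each tested collagen chain (x axis, corticosterone against control, from edgeR) with its 95% interval, by family (colour); filled points passed an adjusted p of 0.05. The filled point is Col16a1 at -0.29, and intervals widen towards the low chains of each family, up to -0.44 to 2.11 for Col11a1.

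Col16a1 (chromosome 4, 130047840 to 130099283, plus strand, GRCm38) encodes a FACIT collagen that binds integrins and lies near fibrils and basement membranes. It had 102, 98.9 and 92.5 CPM (counts scaled to library size) in the controls and 77.4, 82.4 and 79.6 CPM after corticosterone. Every treated library lay below every control. The log2 fold change was -0.29 (SE 0.058, 95% interval -0.43 to -0.16; edgeR quasi-likelihood, Benjamini-Hochberg adjusted p = 0.0396), which is 0.817 of the control level. In bulk RNA, fewer cells with a transcript and less of it per cell cannot be told apart. The call was near the threshold and was lost without any one of control replicates 1, 2 and 3 or corticosterone replicates 1 and 3 (adjusted p 0.0946 to 0.212), while the log2 fold change stayed between -0.33 and -0.26. Without corticosterone replicate 2 the adjusted p was 0.00457, and with DESeq2 it was 0.000574. The other 3 tested FACIT chains (Col12a1, Col20a1 and Col9a3) had overlapping groups and log2 fold changes of -0.24, -0.21 and -0.62, each with an interval that spans 0.

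Among the basement membrane chains, the groups of the abundant pair overlapped, and the minor pair was lower in every treated library without passing the test. Col4a1 (478, 429 and 445 CPM in controls, 425, 409 and 445 CPM after corticosterone) overlapped between groups, with a log2 fold change of -0.08 (95% interval -0.22 to 0.06). Col4a2 (356, 337 and 344 against 346, 326 and 351 CPM) overlapped as well, with a log2 fold change of -0.02 (95% interval -0.14 to 0.10). For both chains a change of more than 0.22 on the log2 scale in either direction lay outside the interval. The starts of Col4a1 and Col4a2 lie 21 bases apart on opposite strands and their annotated exons overlap, so with strandedness not given, reads near the starts could have been counted for either. The ratio of Col4a1 to Col4a2 in FPKM was 1.19, 1.13 and 1.15 in controls and 1.09, 1.11 and 1.12 after corticosterone.

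Col4a5 and Col4a6, the partners of a type IV network of epithelial basement membranes, are a divergent pair on chromosome X. Col4a5 had 35.9, 37.2 and 33.9 CPM in controls and 30.3, 24.5 and 31.6 CPM after corticosterone. Col4a6 had 3.76, 3.94 and 3.52 against 2.70, 2.50 and 2.49 CPM. In both chains every treated library lay below every control, by a log2 fold change of -0.31 for Col4a5 (95% interval -0.55 to -0.07) and -0.54 for Col4a6 (95% interval -0.85 to -0.24). In edgeR's quasi-likelihood test neither passed, with Benjamini-Hochberg adjusted p = 0.177 for Col4a5 and 0.0777 for Col4a6. For Col4a6 the adjusted p was 0.0202 in DESeq2 and 0.0423 in edgeR without corticosterone replicate 2. In FPKM, Col4a5 was 11.3 to 11.4 times Col4a6 in the controls and 13.3, 11.7 and 15 times in corticosterone replicates 1, 2 and 3. Col4a4, of the kidney-type network, was at 0.0275 and 0.041 FPKM, and its divergent neighbour Col4a3 had too few counts for a test.

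The 250 bases before the RefSeq start (GRCm38.p6) of the chain that changed and of the Col4a5 and Col4a6 pair are printed 5′ to 3′ on each gene's own strand. They were chosen after their values were seen, Col16a1 for its call and the others as a gene pair in which both chains were lower in every treated library. Col7a1, Col1a2, Col5a1 and Col5a3 were also lower in every treated library, and their windows are not printed. Capitals mark the GC box GGGCGG on either strand. The windows are chr4:130047590-130047839 (plus) for Col16a1, chrX:141475169-141475418 (plus) for Col4a5 and chrX:141474077-141474326 (minus) for Col4a6.
Col16a1: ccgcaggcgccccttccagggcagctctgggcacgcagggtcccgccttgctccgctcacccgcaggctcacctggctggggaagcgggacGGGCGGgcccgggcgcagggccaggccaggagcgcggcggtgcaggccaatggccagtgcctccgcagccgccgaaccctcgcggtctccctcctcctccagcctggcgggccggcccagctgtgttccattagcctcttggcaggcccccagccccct
Col4a5: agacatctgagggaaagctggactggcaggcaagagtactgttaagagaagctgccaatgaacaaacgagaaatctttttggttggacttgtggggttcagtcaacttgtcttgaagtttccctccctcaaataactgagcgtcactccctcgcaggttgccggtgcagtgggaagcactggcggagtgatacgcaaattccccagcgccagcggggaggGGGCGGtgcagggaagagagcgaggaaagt
Col4a6: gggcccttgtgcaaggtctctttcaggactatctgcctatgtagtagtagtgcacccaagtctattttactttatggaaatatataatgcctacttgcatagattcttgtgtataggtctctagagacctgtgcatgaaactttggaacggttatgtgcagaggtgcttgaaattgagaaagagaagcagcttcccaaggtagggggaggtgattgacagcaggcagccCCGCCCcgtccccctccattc
Each window holds 1 GC box. The glucocorticoid response element half-site AGAACA, searched on both strands, is in none of the 3, which says only that these letters are not in these windows. RefSeq windows, 34 in number, were found for 32 of the 40 chains. AGAACA was in 1 of the 34, that of Col20a1, beside 16.1% of the 32851 windows of all genes. The full palindrome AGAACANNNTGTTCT was in 0 of the 34 beside 0.009% of all windows. GGGCGG was in 21 of the 34 windows (20 of 32 chains) beside 32.7% of all windows, and CCAAT in 11 of the 34 beside 33.8%. TATAAA was in 5 of the 34 beside 12.4%. The Col4a5 and Col4a6 starts lie 1343 bases apart, so their windows do not meet.

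Col7a1, secreted by epithelial cells to tie the basement membrane to the tissue below, had 358, 358 and 361 CPM in controls and 324, 343 and 313 CPM after corticosterone. The controls were nearly equal and all 3 treated libraries were below them. The log2 fold change was -0.14 (95% interval -0.26 to -0.01; edgeR quasi-likelihood, Benjamini-Hochberg adjusted p = 0.246). Leaving out corticosterone replicate 2 gave -0.17 with an adjusted p of 0.0127 in the same test. Col18a1 had 332, 322 and 316 against 338, 355 and 323 CPM, overlapping groups with a log2 fold change of 0.07 (95% interval -0.06 to 0.19). Col8a1 had 164, 156 and 151 against 137, 112 and 157 CPM. Its groups overlapped through corticosterone replicate 3, and the log2 fold change was -0.22 (95% interval -0.47 to 0.03). Col17a1, the transmembrane collagen of hemidesmosomes, had a mean of 0.092 and 0.125 FPKM.

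In the fibrillar family 0 of 11 tested chains changed in edgeR's quasi-likelihood test, beside 2.82% of all genes. At an unadjusted p under 0.05 there was 1 (Col5a3, 9.09%), beside 17.0% of all genes. DESeq2 called 0, beside 1293 of all 17283 tested genes. With 11 chains, these counts do not set the family apart from all genes. The partners of type I collagen were on opposite sides of 0. Col1a2 had 83.3, 77.8 and 78.0 CPM in controls and 73.5, 74.3 and 74.8 CPM after corticosterone, a log2 fold change of -0.10 (95% interval -0.23 to 0.02) with groups that did not overlap. Col1a1 had 34.8, 33.0 and 42.7 against 40.1, 39.4 and 42.4 CPM, a log2 fold change of 0.14 (95% interval -0.09 to 0.37). Neither passed, and the difference between them was not tested. The type I trimer holds more Col1a1 than Col1a2 chains, whereas the ratio of Col1a1 to Col1a2 in FPKM was 0.79, 0.804 and 1.04 in controls and 1.03, 1.0 and 1.07 after corticosterone. Control replicate 3 thus lay with the treated libraries in this ratio. Of the type V chains, which set fibril width, Col5a1 (3.46 and 3.12 FPKM) had a log2 fold change of -0.15 and Col5a2 (1.05 and 0.967 FPKM) of -0.12. Col5a3, at 1.05, 1.27 and 0.996 against 0.509, 0.889 and 0.566 CPM, had one of -0.76 (95% interval -1.42 to -0.09; edgeR quasi-likelihood, Benjamini-Hochberg adjusted p = 0.238). Col5a1 has annotated exons overlapping genes on the other strand, and so do Col9a3 and Col15a1. The cartilage chains Col2a1, Col11a1 and Col11a2 had means of at most 0.219 FPKM.

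In several interstitial chains control replicate 3 stood apart from the other two controls. Col3a1, which joins type I in soft tissue fibrils, had 6.5 and 5.29 CPM in control replicates 1 and 2 but 11.5 CPM in control replicate 3, against 10.8, 10.5 and 9.06 CPM after corticosterone. Col6a2 had 2.08, 1.59 and 3.59 against 3.05, 4.38 and 4.09 CPM. Col6a1, which shares a trimer with it, had 11.7, 10.7 and 13.9 against 13.2, 15.4 and 14.6 CPM. In these chains and in Col1a1, control replicate 3 lay within or above the treated range and the other two controls below it. Col6a3, the third chain of that trimer, went the other way, at 6.28, 4.67 and 3.36 against 3.47, 3.31 and 3.63 CPM. Control replicate 3 again lay within the treated range, and the FPKM ratio of Col6a1 to Col6a3 was 5.1 and 6.28 in the other two controls and 10.5 to 12.8 in the remaining 4 libraries. Over all 29 tested chains, control replicate 3 was the highest control in 11. With 3 controls, each would be highest in about 1 of 3 genes if none stood apart. This count therefore does not set the library apart over the chains as a whole. The log2 fold changes with all 6 libraries were 0.38 for Col3a1, 0.67 for Col6a2, 0.25 for Col6a1 and -0.46 for Col6a3, and none passed. Without control replicate 3 they were 0.78 for Col3a1 and 1.06 for Col6a2 (adjusted p of 0.076 and 0.111 in edgeR's quasi-likelihood test with Benjamini-Hochberg adjustment).

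The same library stood with the treated ones in some, not all, other genes of fibroblasts, smooth muscle and matrix. Of these, 4 are named here because they showed the split, after their values were seen, and Timp3 and Fbln1 are not among the fibroblast markers checked. Acta2, smooth muscle actin, had 2.98, 3.72 and 9.33 CPM in controls and 9.08, 7.86 and 13.6 CPM after corticosterone. Timp3, a matrix-bound metalloproteinase inhibitor, had 1.13, 1.64 and 6.16 against 5.55, 5.33 and 5.06 CPM. Fbln1 and the fibril-coating proteoglycan Dcn showed the same split of libraries, at 2.27 and 1.16 CPM in control replicate 3 and at most 0.598 and 0.536 CPM in the other two controls. Of the 8 fibroblast markers, 2 (Acta2 and Pdgfra) were expressed. In edgeR's quasi-likelihood test 0 of the 6 tested changed, beside 2.82% of all genes. Their summed level was 4.02 to 6.70 FPKM in controls and 5.89 to 8.47 FPKM after corticosterone. Pdgfra ranged from 20.8 to 24.7 CPM with overlapping groups. Fap (0.693, 1.52 and 0.889 against 0.477, 0.751 and 0.597 CPM), Thy1 (1.01, 0.735 and 0.858 against 1.16, 0.598 and 0.505 CPM) and Pdgfrb (2.68, 2.28 and 2.97 against 3.47, 3.27 and 2.2 CPM) did not show the split. The defining markers Lum and Dpt were at 0 counts in 5 of 6 libraries each. The part of other cells in the values of the interstitial chains was not tested.

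**Figure D4:**
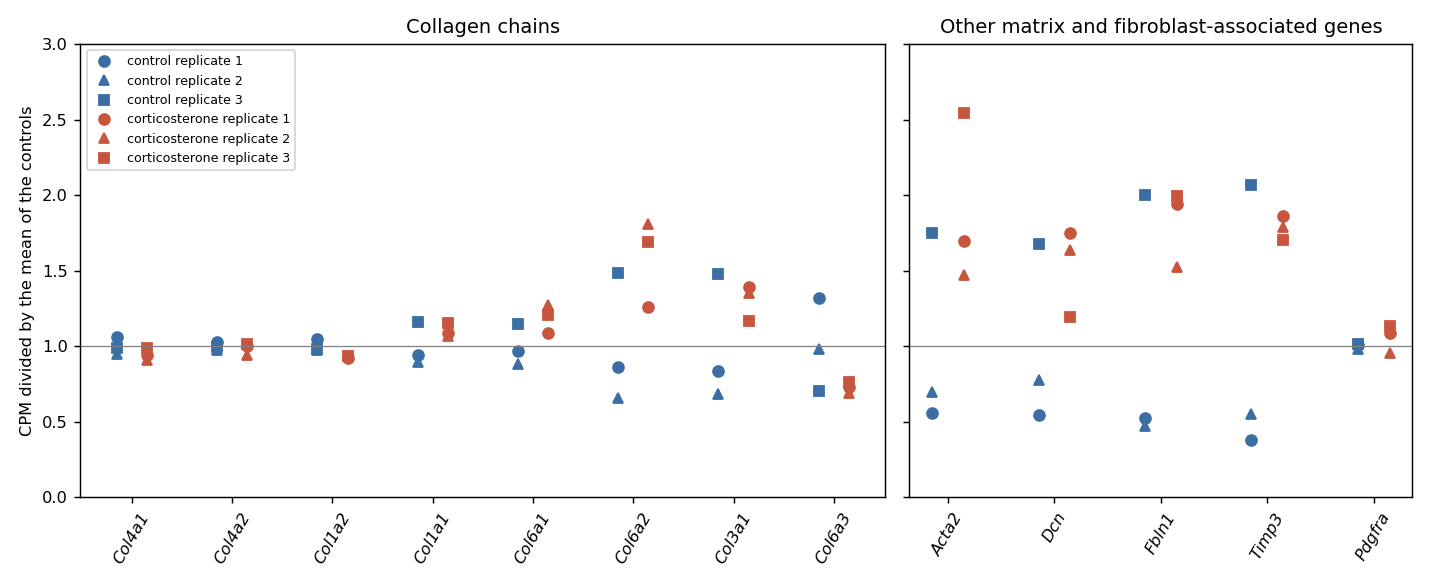
CPM divided by the mean of the 3 controls for 8 collagen chains (left) and 5 other genes chosen after their values were seen (right), 1 point per library, with controls in blue and corticosterone in red. In Col3a1, Col6a2, Acta2, Dcn, Fbln1 and Timp3 the blue square (control replicate 3) lies above the other two controls and at the height of the treated libraries, whereas in Col4a1, Col4a2, Col1a2 and Pdgfra it does not stand apart.

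The 11 chains without enough counts for a test had at most 19 counts in any library, and each was at 0 in at least 1 library. They were Col4a3, Col6a4, Col6a5, Col6a6, Col9a2, Col10a1, Col13a1, Col14a1, Col23a1, Col26a1 and Col28a1. Col6a4 had 12 counts in corticosterone replicate 3 and 0 in the other 5 libraries, and Col6a6 had 4 counts in corticosterone replicate 2 and 0 elsewhere. A count of 0 allows up to 3 counts, or 4.53e-06% to 4.83e-06% of a library (62.2 to 66.2 M counts), for counting error only. In every library more genes had 4 counts (1064 to 1159) than 3 (552 to 598) or 5 (350 to 386), so a count of 4 need not be 4 separate fragments. The 17 tested chains below 1 FPKM in both groups had wider intervals than any of the 12 above it.

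Of the other genes on which collagen depends, 86 were tested and 11 changed (12.8%, beside 2.82% of all genes), 4 higher and 7 lower. The lists were drawn up with earlier results of these data known. The enzymes that modify collagen in the cell did not pass: of 14 for hydroxylation and glycosylation 0 changed in edgeR's quasi-likelihood test, with 5 (35.7%, beside 17.0% of all genes) at an unadjusted p under 0.05, 2 called by DESeq2 and 0 by limma. Of all 17283 tested genes DESeq2 called 1293. Limma on log2(FPKM + 1) called 504 of the 11836 genes it tested, and tested 12 of these 14. P3h3 and Crtap, of prolyl 3-hydroxylation, had log2 fold changes of -0.40 and -0.24. Of 13 genes for folding and secretion 0 changed in edgeR's test. DESeq2 called 0, and limma called 0 of the 10 it tested. At an unadjusted p under 0.05 in edgeR's test there were 2 (15.4%, beside 17.0% of all genes). These were Creb3l2 (0.27) and Sec24d (0.24), a transcription factor and a coat protein of the vesicles that export procollagen.

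Outside the cell, Bmp1, the protease that trims the C-terminal propeptide of fibrillar procollagens and activates lysyl oxidase, fell. It had 540, 558 and 551 CPM in controls and 421, 471 and 417 CPM after corticosterone, a log2 fold change of -0.33 (edgeR quasi-likelihood, Benjamini-Hochberg adjusted p = 0.0264; 0.0909 to 0.177 without any one library but corticosterone replicate 2). Its enhancers Pcolce and Pcolce2 were on opposite sides, at -0.31 and 0.24, and did not pass. Lox, which cross-links collagen and elastin, rose from 17.3, 18.2 and 18.8 to 24.6, 25.2 and 27.4 CPM (adjusted p = 0.0144, same test; 0.0572 to 0.107 without any one library but corticosterone replicate 2). Its relative Loxl4 had a log2 fold change of 0.48 and did not pass, and that of the cross-linking transglutaminase Tgm2 was -0.12.

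Of 15 partners in the matrix 3 changed (20.0%, beside 2.82% of all genes), all lower. This list and those of receptors and degradation below were drawn up with earlier results of these data known. Nid1, which bridges laminin and type IV collagen, had 7.90, 6.44 and 5.33 CPM in controls and 3.85, 2.76 and 3.55 CPM after corticosterone, a log2 fold change of -0.95. Sparc, which binds collagen (-0.33), and the matrix glycoprotein Tnc (-0.35) fell with no overlap of groups. The calls of Nid1 and Tnc were lost without any one library but corticosterone replicate 2, and that of Sparc without any one but corticosterone replicates 2 and 3 (largest adjusted p 0.157, 0.222 and 0.15, edgeR quasi-likelihood). The basement membrane proteoglycan Hspg2 (0.16) and the laminin chain Lamb1 (-0.11) did not pass.

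Of 17 receptor and hemidesmosome genes 3 rose and 0 fell (17.6% changed, beside 2.82% of all genes). Among those that rose were Lama3 and Lamb3, laminin chains of the epithelial basement membrane to which anchoring fibrils of type VII collagen attach. Lama3 had 73.1, 55.9 and 59.3 CPM in controls and 147, 120 and 151 CPM after corticosterone. Lamb3 had 190, 190 and 184 against 262, 285 and 256 CPM. The groups did not overlap in either, with log2 fold changes of 1.15 and 0.51, whereas Col7a1 stood at -0.14. Both passed without each library in turn. None of the 4 collagen-binding integrin chains passed edgeR's quasi-likelihood test. Itga10 had a log2 fold change of 1.14 (adjusted p of 0.052) and Itga1 of -0.63 (adjusted p of 0.0805). Itga2 and Itga11, named after their values were seen, had 0.51 and 1.26 (adjusted p of 0.0876 and 0.204). Itga2 had 164, 140 and 148 CPM in controls and 221, 171 and 253 CPM after corticosterone, and was expressed at means of 18.7 and 26.8 FPKM. Itga10 (0.154 and 0.346 FPKM), Itga11 (0.0757 and 0.185 FPKM) and Itga1 (0.395 and 0.257 FPKM) were below 1 FPKM in both groups. In Itga2, Itga10 and Itga11 every treated library lay above every control, and in Itga1 below, where 22.2% of all genes had no overlap of groups. All 4 had an unadjusted p under 0.05 in that test, beside 17.0% of all genes. DESeq2 called 3 of them (not Itga11), beside 1293 of all 17283 tested genes.

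Of 14 genes of collagen degradation 3 changed (21.4%, beside 2.82% of all genes), all lower. The gelatinase gene Mmp9, whose product cuts type IV collagen and denatured chains, went from 126, 132 and 139 to 65.2, 74.5 and 69.6 CPM. The collagenase gene Mmp13, whose product cuts intact fibrillar helices, had 25.3, 25.6 and 25.1 against 14.6, 17.1 and 17.1 CPM. Mmp3, stromelysin-1, fell by 1.40 on the log2 scale. Mmp3 and Mmp9 passed without each library in turn, and Mmp13 had an adjusted p of 0.0506 and 0.0752 without control replicate 1 or 2. The membrane collagenase Mmp14 (-0.15) and the inhibitor Timp1 (-0.24) did not pass. Nid1, Tnc, Lama3, Lox and Timp3 have annotated exons that overlap a gene on the other strand.

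**Figure D5:**
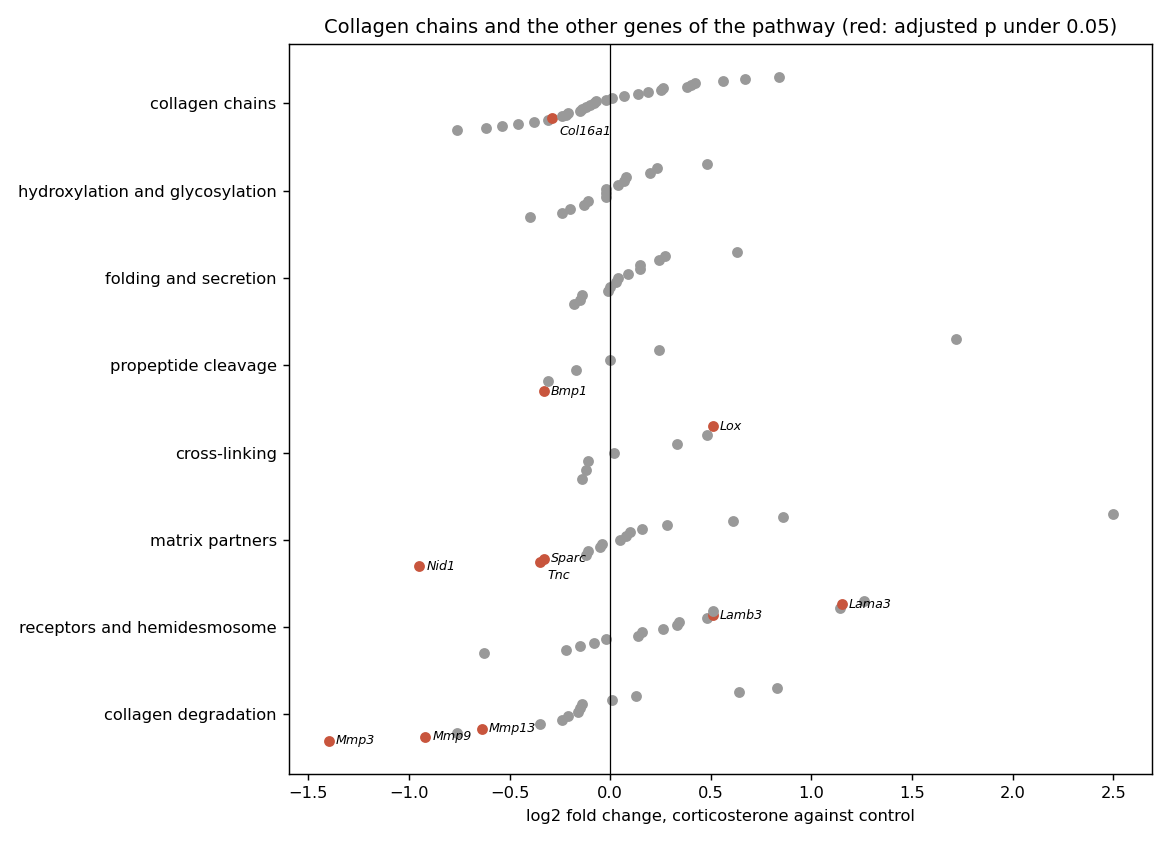
Log2 fold change (x axis, corticosterone against control) of each tested collagen chain (top line) and of the tested genes in 7 lists of collagen biology, 1 point per gene and 1 changed gene not drawn, with those at an adjusted p under 0.05 in red and named. The collagen chains hold 1 red point, the 2 lists of steps inside the cell hold none, and the 10 others drawn lie in the 5 lists of steps outside it. The 2 lists inside hold 14 and 13 tested genes, beside a share of 2.82% changed over all genes. The lists inside and outside were not compared by a test.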

How the data were processed

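RNA of 6 libraries of 4T1 cells was sequenced, and groups were taken from the treatment labels and replicate numbers from the titles. The deposited counts, named so in the file headers, are whole numbers per gene and library and totalled 62.2 to 66.2 M per library. They were taken as not normalized by the authors, which the headers do not state. The FPKM values in the same table are the authors' own, per the file headers. Aligner, counter, read layout and strandedness were not given in the sources used here. Per the submitters' processing notes the build was GRCh38, which is human, but all 28154 identifiers are mouse ones, 90.4% of those found in GENCODE M21 (28086) having identical coordinates there. Coordinates of genes are those of the deposited table.

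After filterByExpr (minimum count 10, minimum total 15), 17283 genes were scaled with TMM factors and tested with edgeR 4.0.16 (R 4.3.3, quasi-likelihood, group as the only factor). Benjamini-Hochberg adjustment was over these genes, and "changed", "rose" and "fell" are used at an adjusted p under 0.05. The 95% intervals use the fit's own t distribution. Alternatives were DESeq2 1.42.0, its size factors in edgeR, no low count filter, limma 3.58.1 on log2 of the deposited FPKM plus 1 or 0.1, the replicate block, and each library left out in turn. The pipeline was tested on simulated data.

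Chains named in full were those that changed, those of at least 5 FPKM in either group, and their trimer or gene pair partners. Of each pathway list, members that changed and up to 2 others by lowest p were named, except 1 changed gene that is counted but not reported here by name. The members and lists were chosen with earlier results of these data known. Chains with groups that do not overlap, and those in which control replicate 3 stood apart, were named after their values were seen. Deviations from group means had little relation between libraries of the same number (Pearson r across genes 0.0106, 0.0379 and -0.0884), so the main test did not pair libraries. The labels do not say whether libraries of the same number were prepared together.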

Additional observations from a re-analysis of the deposited data

How the results depend on the processing

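The direction of Col16a1 held under every alternative run, and its call held with DESeq2, DESeq2 size factors and limma at both pseudocounts. The number of changed chains was 1, and it was 2 with DESeq2, 0 without the low count filter, 0 with limma without a filter, 0 and 2 at thresholds of 0.01 and 0.1, and 0 to 4 with 1 library left out. Without the filter edgeR gave Col16a1 an adjusted p of 0.0821. All changed genes numbered 487, and 1293 with DESeq2, 211 without the filter, 260 with unfiltered limma, 144 at 0.01, 889 at 0.1 and 88 to 3670 with 1 library left out. Pathway genes numbered 11, and 20, 7, 6 and 6 under the first 4 of these and 4 to 34 with 1 library left out, where the lowest was without control replicate 2 and the highest without corticosterone replicate 2. The replicate block, which pairs libraries by number though the labels do not say whether they are pairs, gave 237 genes, 7 pathway genes and 0 chains (Col16a1 adjusted p 0.115). The median log2 fold change of the chains, -0.079, was -0.005 with unfiltered limma and -0.114 to -0.031 with 1 library left out. The difference in summed FPKM was -11.7 to -5.19 with 1 library left out. It was -10.4 with the TMM factor (exact permutation p = 0.1, the smallest possible) and 0.762 with TPM scaling. Col4a2 ranged from -0.04 to 0.01, its sign turning without control replicate 1 (0.00) or corticosterone replicate 2 (0.01). Over the 33 genes chosen by the naming rule and 423 alternative values, 52 lost a call, 20 gained one and 2 turned sign. Leaving out a library also leaves fewer libraries to test. With 3 libraries a group, the 95% intervals of tested chains below 1 FPKM other than Col4a6 and Col5a3 include 0.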
